A study of Trachinotus ovatus with 6 samples.

Results

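Short genes were taken as the genes of the deposited table whose span, from the start to the end of the listed locus with introns included, was at most 1500 bp and did not lie wholly within the span of a longer gene. Of 22062 genes, 1430 were that short, 682 of these lay within a longer gene and were set aside, and the remaining 748 (3.39% of the table) are described here. RNA was sequenced from whole gonads of golden pompano (Trachinotus ovatus), a teleost fish of warm seas, kept at an experimental base in Shenzhen, in a study whose title names the Sox transcription factors and their expression in ovaries and testes. The groups were testes from 3 males (coded TOQX) and ovaries from 3 females (coded TOQC), each library from a different fish. The labels give no treatment other than removal of the gonad, and no age, stage of maturity or strain beyond those codes. Gene names are not paired with identifiers in the table, so the gonads could not be checked against marker genes, and short genes are given by linkage group and position.

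A short span usually means few or no introns and a small product. Genes of this form in animals include the intronless histone genes, many genes for small secreted or structural proteins, and non-coding RNA genes, but also truncated copies and partial gene models. In fish gonads, an ovary is rich in oocytes, which store large amounts of maternal RNA for the embryo, while a testis holds meiotic and haploid germ cells that transcribe a broad range of genes. FPKM divides fragments by the length of the gene model, so a single fragment is worth more in a short gene than in a long one. Fewer cells of a type and less RNA per cell cannot be told apart in such bulk samples.

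The spans of the 748 short genes ran from 147 to 1500 bp with a median of 1010 bp, against a median of 10382 bp for the 20632 longer genes. There were 89 short genes of at most 500 bp, 279 above 500 and up to 1000 bp, and 380 above 1000 bp. All but 6 lay on linkage groups. Short genes made up 42.9% of the 147 genes whose identifier begins with XLOC, which is 63 of them. The span of 619 short genes overlapped no other gene, and 17.3% overlapped one, against 38.4% of longer genes. That contrast is set in part by the rule for short genes. It set aside the 682 that lay within a longer gene, while longer genes within another gene were kept. A subset of 89 short genes lay on 10 spans that several genes share exactly, so the 748 genes had 669 distinct spans. Of those 89 genes, 73 were listed at 0 in all 6 libraries, and sums and shares are therefore also given with 1 gene per distinct span.

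The libraries summed to 485022 to 490967 FPKM in testes and 658899 to 796856 FPKM in ovaries, and read depth is unknown. Over tested genes, the testis to ovary log2 fold had a median of 1.43 as deposited, and this moved with the scale to 2.09 in TPM, 1.16 after median-ratio scaling and 0.13 after quantile normalization. Folds here are testis over ovary on log2(FPKM + 1), which understates the change of low genes, and a fold below 1.43 is low relative to the typical tested gene.

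Most short genes were at or near 0 in both gonads, and more of them were detected in testes than in ovaries. Short genes at 1 FPKM or more numbered 247, 213 and 235 in testes 1 to 3, and 101, 115 and 106 in ovaries 1 to 3. As a share of the 748 this was 31.0% ± 2.31 in testes and 14.4% ± 0.949 in ovaries (SD, n = 3 per gonad). The lowest testis lay above the highest ovary, with p = 0.1 in an exact two-sided permutation test over libraries, the smallest value that 3 against 3 libraries allow. With 1 gene per distinct span the shares were 34.5% ± 2.497 in testes and 16.04% ± 1.06 in ovaries (SD, n = 3 per gonad). The median short gene stood at 0.352, 0.230 and 0.303 FPKM in testes and at 0 in every ovary.

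Longer genes were detected far more often in both gonads. They reached 1 FPKM in 83.6% ± 1.42 of cases in testes and 48.1% ± 4.58 in ovaries (SD, n = 3 per gonad). The short share minus the longer share was -52.6 ± 0.892 percentage points in testes and -33.7 ± 3.72 in ovaries (SD, n = 3 per gonad), without overlap (exact permutation p = 0.1, the smallest possible). As a ratio, however, the short share was 0.370 ± 0.0214 of the longer share in testes and 0.299 ± 0.0132 in ovaries (SD, n = 3 per gonad), also without overlap (exact permutation p = 0.1). The order of the gonads in this contrast thus turns with the scale, and it also turned at a detection limit of 0.1 FPKM, where the difference in points between the gonads was 15.5 in place of -18.9. The size of that difference also depended on the longer genes used. At 1 FPKM it was -7.12 points against only those longer genes that span at most 5000 bp.

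Values of exactly 0 were common among short genes, above all in ovaries. They made up 19.1% ± 2.27 of short genes in testes and 57.5% ± 1.04 in ovaries (SD, n = 3 per gonad), against 0.583% ± 0.245 of longer genes in testes and 9.31% ± 0.621 in ovaries. With 1 gene per distinct span, the short-gene shares at 0 were 10.4% ± 2.47 in testes and 53.2% ± 1.13 in ovaries (SD, n = 3 per gonad). In all 6 libraries 89 short genes (11.9%) were listed at 0, which is 32.8% of the 271 such genes in the table. Most of these, 73, lay on spans that several genes share. Among the 619 short genes that overlapped no other gene, 13 were listed at 0 in all 6 libraries. A further count was one-sided: 167 short genes (22.3%) were listed at 0 in every ovary and above 0 in every testis, and 2 (0.267%) the other way round. The same count is not given here for longer genes. Those were also at 0 more often in ovaries (9.31%) than in testes (0.583%), so this direction is not particular to short genes. A listed 0 can be a failed estimate, and the part of depth and of gene model quality in these zeros was not tested.

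**Figure D1:**
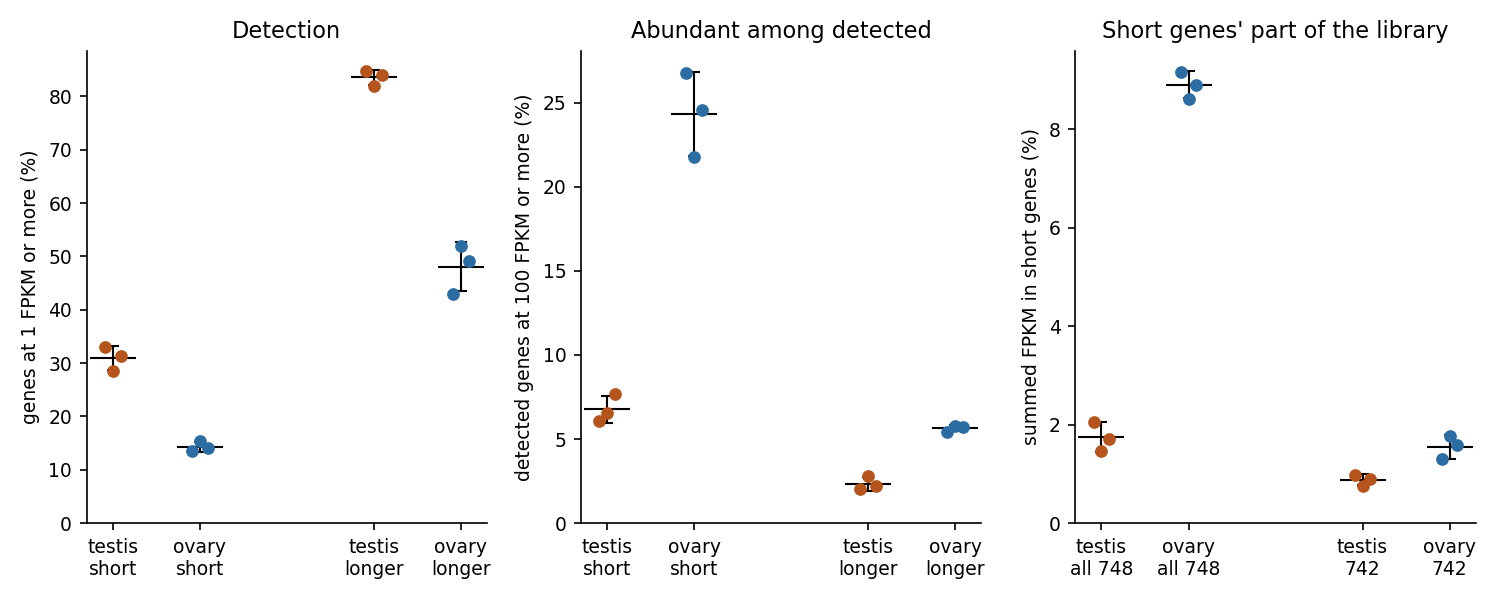
Each point is 1 library, with the mean and SD of 3 libraries as lines: the share of genes at 1 FPKM or more (left), the share of detected genes at 100 FPKM or more (middle), both for short and longer genes, and the share of each library's summed FPKM held by all 748 short genes or by the 742 left without each library's own 6 highest (right). Short genes were detected less often in ovaries than in testes, yet held 1.75% of the testis sums and 8.90% of the ovary sums, and 0.879% and 1.55% without the 6 highest of each library.

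The short genes that were detected in ovaries stood at high levels. Among short genes at 1 FPKM or more, the median was 5.42, 5.63 and 4.86 FPKM in testes 1 to 3, and 21.8, 19.4 and 25 FPKM in ovaries 1 to 3. The ovary medians were all above the testis medians (exact permutation p = 0.1, the smallest possible). For detected longer genes the same medians were 8.29 ± 0.338 FPKM in testes and 7.05 ± 1.32 FPKM in ovaries (SD, n = 3 per gonad), and these overlapped (exact permutation p = 0.2). Levels of 100 FPKM or more were held by 6.77% ± 0.811 of detected short genes in testes and 24.3% ± 2.502 in ovaries (SD, n = 3 per gonad). Longer genes at that level made up 2.33% ± 0.398 of those detected in testes and 5.64% ± 0.176 in ovaries. At 1000 FPKM or more there were 0 to 2 short genes in a testis and 8 or 9 in an ovary.

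By mean level, 77 short genes reached 10 FPKM in testes and 63 in ovaries, and 17 reached 100 FPKM in testes and 25 in ovaries. Short genes were 1.01% of all genes at 10 FPKM in testes and 1.48% in ovaries, and 3.92% of those at 100 FPKM in testes and 4.15% in ovaries, beside 3.39% of the table. At 1000 FPKM there were 2 short genes in testes and 9 in ovaries, and these 9 were 9.38% of all genes at that level in ovaries. Of the 17 short genes at 100 FPKM in testes, the limma test (adjusted p under 0.05, over 17206 genes) called 9 toward testis and 4 toward ovary, and 4 did not pass. Of the 25 at 100 FPKM in ovaries, it called 2 toward testis and 19 toward ovary, and 4 did not pass. Over all tested genes the calls were 68.2% toward testis and 13.4% toward ovary, but a high mean in 1 gonad favours calls toward it. Of longer genes at 100 FPKM in testes 64.8% were called toward testis and 16.2% toward ovary, and of those at 100 FPKM in ovaries 9.58% were called toward testis and 76.3% toward ovary. The 19 of 25 short genes (76%) called toward ovary were thus close to the share of longer genes at that level. Only 10 short genes reached 100 FPKM in both gonads.

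A handful of loci carried the short-gene signal of the ovaries. Short genes held 2.06%, 1.46% and 1.72% of the summed FPKM in testes 1 to 3, and 9.17%, 8.62% and 8.90% in ovaries 1 to 3 (exact permutation p = 0.1, the smallest possible). The 6 short genes with the highest ovary mean made up 3.40% ± 1.17 of the short-gene sum in testes and 83.8% ± 3.06 in ovaries (SD, n = 3 per gonad). The 6 highest short genes of each library itself made up 49.8% ± 2.91 of the short-gene sum in testes and 83.8% ± 3.06 in ovaries (SD, n = 3 per gonad). With each library's own 6 highest left out, short genes held 0.977%, 0.760% and 0.901% of the summed FPKM in testes 1 to 3, and 1.298%, 1.773% and 1.577% in ovaries 1 to 3. The ovaries stayed above the testes (exact permutation p = 0.1, the smallest possible), and the difference between the gonads was -0.670 percentage points, against -7.15 with all short genes. Leaving the 6 loci with the highest ovary mean out of every library gave another result. Short genes then held 1.69% ± 0.311 in testes and 1.55% ± 0.239 in ovaries (SD, n = 3 per gonad). The gonads overlapped (exact permutation p = 0.6), but that removal was chosen by the ovary values. The 6 loci with the highest ovary means alone held 0.0498% to 0.0691% of a testis library and 6.97% to 7.97% of an ovary library. A share of 50% of the short-gene sum was reached with 6 or 7 genes in a testis and with 2 or 3 in an ovary. The mean level of short genes relative to longer genes was -0.999 ± 0.243 on the log2 scale in testes and 1.61 ± 0.0659 in ovaries (SD, n = 3 per gonad), so that the mean short gene was below the mean longer gene in every testis and above it in every ovary. The median short gene, however, was below the median longer gene in every library. The difference in median log2(FPKM + 1) was -2.48 ± 0.0392 in testes and -0.919 ± 0.259 in ovaries (SD, n = 3 per gonad), without overlap (exact permutation p = 0.1, the smallest possible).

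The most abundant of them was SCSFRI_TO_T_00068421, a gene of 933 bp on linkage group 15 (15017740 to 15018672). It stood at 30.9, 0.132 and 4.02 FPKM in testes 1 to 3, and at 20766, 15995 and 19878 FPKM in ovaries 1 to 3. Every ovary was far above every testis, and the testes differed widely among themselves. On the log2 scale the fold was -11.70 ± 1.02 (SE; limma adjusted p = 1.3e-05), moving to -12.94 when testis 1 was left out and to -10.53 when testis 2 was. In each ovary this 1 locus held 2.43% to 2.71% of the summed FPKM. The second, SCSFRI_TO_T_00014452 of 1456 bp on linkage group 5 (16648185 to 16649640), stood at 12.2, 0.179 and 1.64 FPKM in testes and 18398, 9481 and 12163 FPKM in ovaries. Its log2 fold was -11.86 ± 0.78 (SE; limma adjusted p = 2.9e-06), which differed from that of the linkage group 15 gene by less than either SE.

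Another 4 loci, named by the same rule, completed the 6 with the highest ovary means. The 1134 bp gene on linkage group 7 (14087992 to 14089125) stood at 18.7, 0.635 and 3.08 FPKM in testes and 10714, 10046 and 9059 FPKM in ovaries. The 617 bp gene on linkage group 4 (27749224 to 27749840) showed 16.2, 3.08 and 3.19 FPKM in testes and 4801, 4516 and 5637 FPKM in ovaries. In both, testis 1 was the highest testis and no testis reached 1% of the ovary mean, with log2 folds of -10.93 ± 0.77 and -9.55 ± 0.52 (SE; limma adjusted p = 4e-06 and 1.5e-06). The 936 bp gene on linkage group 6 (10492736 to 10493671) had steady testis values of 7.27, 7.33 and 5.99 FPKM, against 1840, 1439 and 1923 FPKM in ovaries. The 363 bp gene on linkage group 21 (16816221 to 16816583) was the one of the 6 that was also abundant in testes, at 174, 324 and 224 FPKM, against 6997, 4445 and 5897 FPKM in ovaries. Their log2 folds were -7.78 ± 0.19 and -4.60 ± 0.26 (SE; limma adjusted p = 8.3e-07 and 1.6e-06). A 1029 bp gene on linkage group 17 (18286842 to 18287870) belonged to the 6 largest ovary folds as well, with 4.92, 2.30 and 3.26 FPKM in testes and 1189, 1051 and 926 FPKM in ovaries (log2 fold -7.91 ± 0.25, SE; limma adjusted p = 1.1e-06).

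The testis level of these ovary-high genes was not the same in the 3 testes. As a percentage of the ovary mean, the linkage group 15 gene stood at 0.164, 0.000697 and 0.0213 in testes 1 to 3, the linkage group 5 gene at 0.0916, 0.00134 and 0.0123, and the linkage group 7 gene at 0.188, 0.00639 and 0.0310. In each of the 3 genes testis 1 was highest and testis 2 lowest. The same order held in the linkage group 4 gene, at 0.324, 0.0618 and 0.0639%, and the linkage group 17 gene, at 0.466, 0.218 and 0.309%. It also held in the gene at 28078436 on linkage group 1, at 7.17, 4.42 and 6.04%. The linkage group 6 gene did not share this order, at 0.419, 0.423 and 0.345%, nor did the linkage group 21 gene, at 3.02, 5.61 and 3.87% with testis 2 highest. Among 27 longer genes with an ovary mean of at least 1000 FPKM and a log2 fold of -6 or less, the medians were 0.265, 0.0368 and 0.0882% in testes 1 to 3, with testis 1 highest in 26 and testis 2 lowest in 26. Without testis 1 the log2 folds of the genes on linkage groups 5, 7 and 4 were -12.83, -11.91 and -10.23, and without testis 2 they were -11.09, -10.11 and -9.19. The part of this difference between testis libraries in the folds above was not tested.

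**Figure D2:**
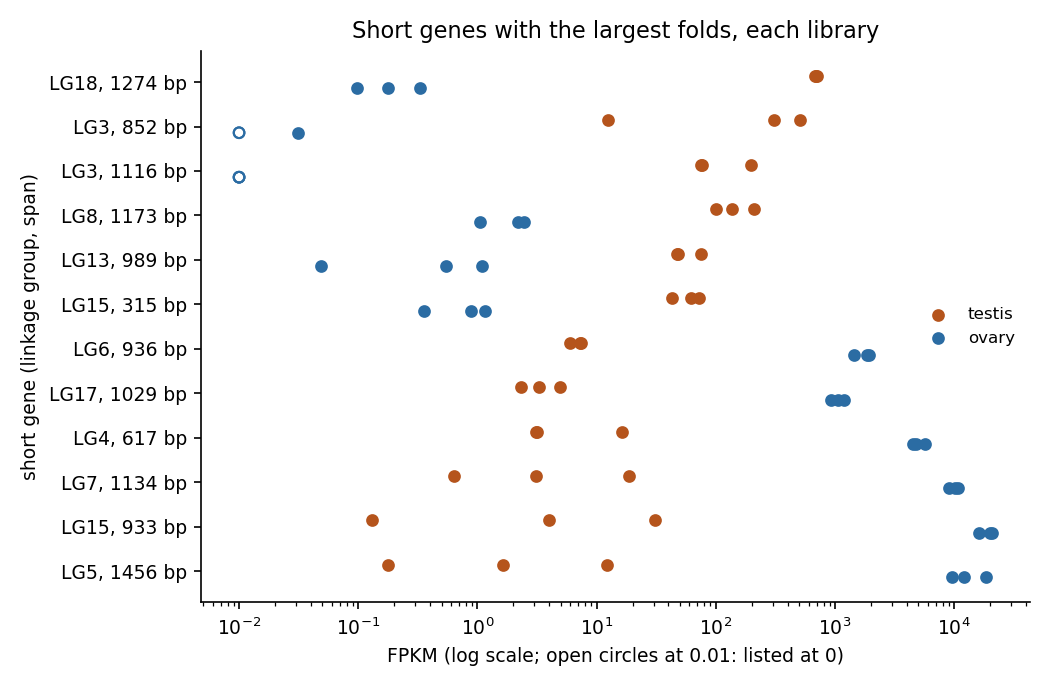
FPKM in each of the 6 libraries (log scale) for the 6 short genes with the largest log2 folds in each direction among those with at least 10 FPKM in the higher gonad and no overlap, labelled by linkage group and span; open circles drawn at 0.01 are listed at 0. The upper 6 were higher in testis and the lower 6 in ovary, and the 3 lowest rows show testis values spread over more than an order of magnitude.

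The short genes with the largest testis folds were separate loci. The gene SCSFRI_TO_T_00122243 of 1274 bp on linkage group 18 (7313902 to 7315175) stood at 705.6, 681.6 and 687.3 FPKM in testes, against 0.098, 0.332 and 0.179 FPKM in ovaries. The testes were within a narrow range and the ovaries were all below 1 FPKM, with a log2 fold of 9.17 ± 0.19 (SE; limma adjusted p = 3.7e-07) that is 11.23 with a pseudocount of 0.1. The 852 bp gene SCSFRI_TO_T_00015689 on linkage group 3 (9587346 to 9588197) varied far more, with 505, 12.4 and 306 FPKM in testes and 0, 0.0313 and 0 FPKM in ovaries. Its log2 fold of 6.98 ± 1.20 (SE; limma adjusted p = 0.00075) was 5.99, 8.61 and 6.35 with testis 1, 2 or 3 left out. A second gene on that linkage group, of 1116 bp (1148292 to 1149407), stood at 76.1, 75.7 and 197 FPKM in testes and was listed at 0 in every ovary (limma adjusted p = 1.6e-06). Each of these genes was under 1 FPKM in every ovary, so each could enter the test only through the testes, where it is high.

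A further 3 short genes completed the largest testis folds. The 1173 bp gene on linkage group 8 (24986921 to 24988093) showed 207, 100.3 and 135 FPKM in testes and 1.05, 2.20 and 2.48 FPKM in ovaries. The 989 bp gene on linkage group 13 (1015630 to 1016618) stood at 74.4, 48.6 and 47.1 FPKM in testes and 0.0490, 1.10 and 0.544 FPKM in ovaries. The 315 bp gene on linkage group 15 (4849249 to 4849563) showed 61.8, 42.9 and 72.0 FPKM in testes and 0.359, 1.15 and 0.888 FPKM in ovaries. The rule that named these loci required a call and no overlap between the gonads, so neither is a result about them. Their log2 folds were 5.65 ± 0.33, 5.23 ± 0.31 and 5.05 ± 0.28 (SE; limma adjusted p = 1.8e-06, 2e-06 and 1.5e-06).

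The most abundant short genes of the testes were mostly abundant in ovaries too. An exception was the gene at 7313902 on linkage group 18, given above, with means of 691.5 FPKM in testes and 0.203 FPKM in ovaries. The linkage group 24 gene below was also far lower in ovaries. The highest, of 1092 bp on linkage group 22 (16638128 to 16639219), stood at 1419, 949.2 and 1064 FPKM in testes and 1378, 1287 and 1286 FPKM in ovaries. The gonads overlapped, the log2 fold of -0.22 ± 0.17 (SE; limma adjusted p = 0.24) did not pass, and its sign turned to 0.35 in TPM and to 0.77 after quantile normalization, where it passed. It also passed without testis 1 (-0.39). The second, of 1309 bp on linkage group 10 (4765146 to 4766454), stood at 1396, 766.7 and 1044 FPKM in testes and 619, 653.5 and 742 FPKM in ovaries. Its log2 fold of 0.63 ± 0.22 (SE; limma adjusted p = 0.028) was below the all-gene median of 1.43, and it no longer passed after median-ratio scaling (0.15) or without testis 1 (0.42), testis 3 (0.63), ovary 1 (0.58) or ovary 2 (0.61). A 1478 bp gene on linkage group 11 (4911411 to 4912888) stood at 612, 391 and 494 FPKM in testes and 141, 367 and 250.2 FPKM in ovaries, with a log2 fold of 1.06 ± 0.34 (SE; limma adjusted p = 0.020) that did not pass after median-ratio scaling (0.58) or without testis 1 (0.90) or testis 3 (1.06). A 987 bp gene on linkage group 24 (13344959 to 13345945) was set apart by testis 1, with 737, 200.1 and 200.4 FPKM in testes and 17.8, 27.2 and 30.6 FPKM in ovaries. Its log2 fold was 3.60 ± 0.51 (SE; limma adjusted p = 0.00023), and 2.98 without testis 1.

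Another 3 abundant short genes besides the one on linkage group 22 did not pass the test. The 1140 bp gene on linkage group 3 (2883070 to 2884209) showed 418, 298 and 398 FPKM in testes and 328, 397 and 461 FPKM in ovaries. The 1186 bp gene on linkage group 8 (11150236 to 11151421) stood at 113, 86.3 and 101 FPKM in testes and 65.1, 116 and 121 FPKM in ovaries. The 1450 bp gene on linkage group 21 (208439 to 209888) showed 132, 173 and 138 FPKM in testes and 193, 186 and 218 FPKM in ovaries. The first 2 overlapped between the gonads (limma adjusted p = 0.69 and 0.91), while on linkage group 21 every ovary was above every testis (log2 fold -0.43 ± 0.18, SE; limma adjusted p = 0.051). That gene passed with a pseudocount of 0.1 (-0.44), after median-ratio scaling (-0.91) and without testis 2 (-0.55) or ovary 1 (-0.45). The sign of each of the 3 turned under at least 1 other scaling, and the gene on linkage group 3 passed after quantile normalization (0.80).

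Across all 748 short genes, a filter at 1 FPKM in at least 3 of the 6 libraries admitted 212 (28.3%), against 81.7% of longer genes. Of the 212, 100 were under 1 FPKM in every ovary and 7 under 1 FPKM in every testis, so these 107 could enter the test only through the gonad where they are high. In the limma fit over 17206 genes, 136 of the 212 were higher in testis, beside 68.2% of all tested genes, and 52 were higher in ovary, beside 13.4% of all tested genes. As a share of the tested short genes these were 64.2% and 24.5%, and 24 did not pass. With a log2 fold of at least 1 in size the counts were 128 short genes higher in testis (background 62.1%) and 46 higher in ovary (background 9.68%). Without the filter, 659 short genes entered, of which 400 were higher in testis (background 69.4%) and 62 higher in ovary (background 10.8%). The 275 short genes called only there had a median log2 fold of 0.39.

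A filter at 1 FPKM in every library depends on the fold in another way: it drops the 100 short genes under 1 FPKM in every ovary and only 7 of the opposite kind. It left 85 short genes, 11.4% of the 748, of which 23 (27.1%) were called toward testis and 40 (47.1%) toward ovary. Among the 8459 longer genes at 1 FPKM in all 6 libraries, 42.2% were called toward testis and 23.6% toward ovary. These shares are set in part by that filter, describe lists, and were not tested against each other. Testis-higher genes were 72.3% of the short-gene calls as deposited, 76.1% in TPM, 69.0% after median-ratio scaling and 52.9% after quantile normalization. For all genes the same shares were 83.6%, 90.1%, 76.9% and 53.7%.

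The tails of the fold distribution were uneven. The median log2 fold of the 212 tested short genes was 1.31, with quartiles of -0.48 and 2.16, and that of longer genes was 1.44, with quartiles of 0.28 and 2.34. A log2 fold of 2 or more in size was reached by 60 short genes toward testis and 29 toward ovary, a fold of 4 or more by 13 and 11, and a fold of 6 or more by 3 and 7. At 2 there were 5673 of the 16846 tested longer genes toward testis and 663 toward ovary. Their counts were 709 and 183 at 4, and 78 and 66 at 6. At a log2 fold of 1 or more in size, the shares of tested short genes were 60.4% toward testis and 21.7% toward ovary. For tested longer genes these shares were 62.1% and 9.43%. The short-gene counts at a fold of 6 or more are small, and each of these loci is given by position here.

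**Figure D3:**
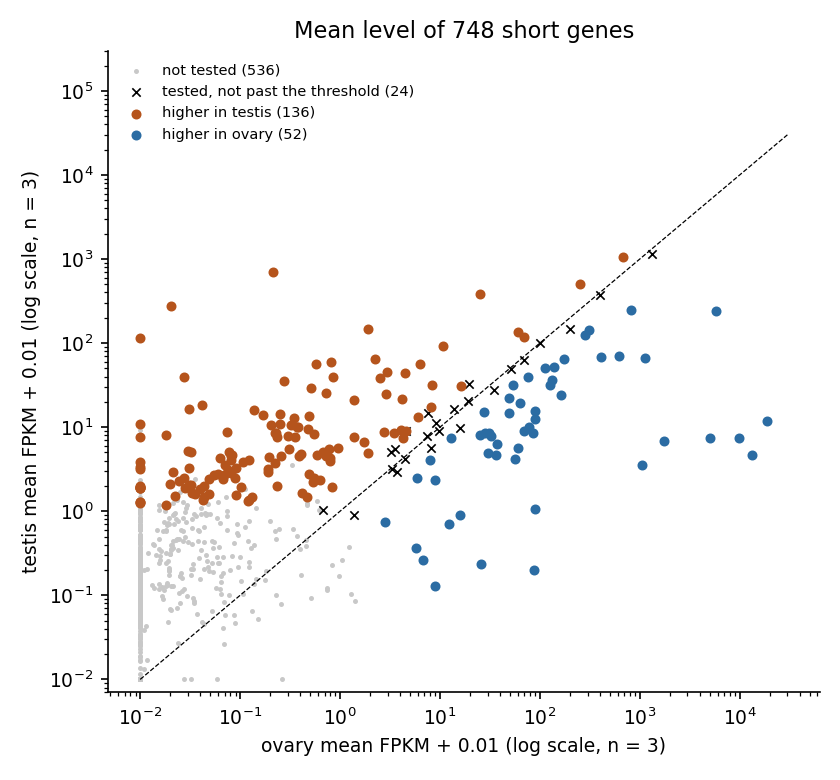
Mean FPKM in testes (vertical) against ovaries (horizontal) for each of the 748 short genes, both on log scales with 0.01 added and n = 3 libraries per mean; the dashed line marks equal means. The 136 genes higher in testis lie mostly at low ovary values, the 52 higher in ovary mostly at 10 FPKM or more in ovary, and the 536 not tested lie in the lower left.

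**Figure D4:**
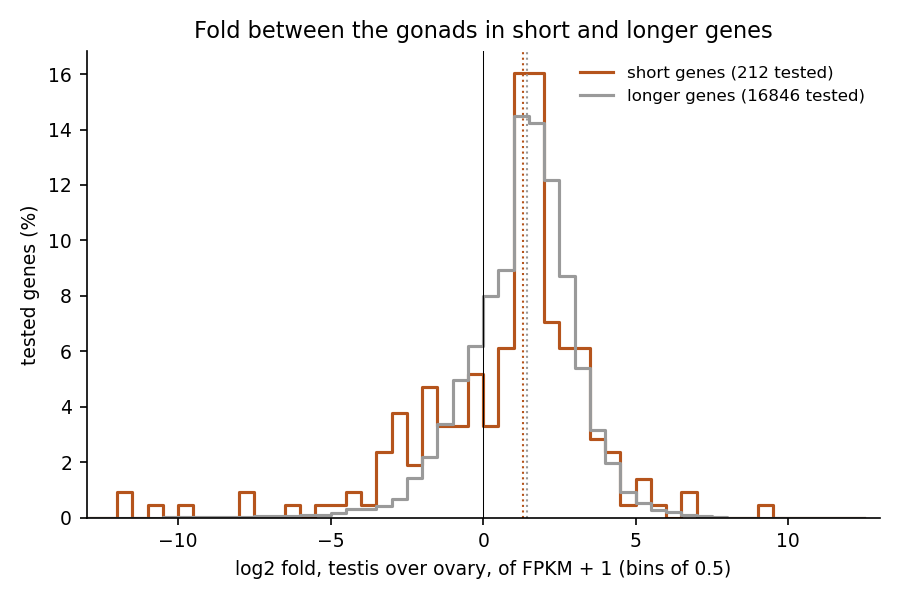
Share of tested genes by testis over ovary log2 fold of FPKM + 1, in bins of 0.5, for 212 short and 16846 longer genes; dotted lines mark the medians of 1.31 and 1.44. The peaks nearly coincide, and a larger share of short genes than of longer genes lies at negative folds.

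Short genes limited to testis were mostly at low levels, and none was limited to ovary. A gene was called limited when it reached 1 FPKM in every library of a gonad and stayed under 0.1 FPKM in every library of the other. By this rule 44 short genes (5.88%) were limited to testis, against 10.1% of longer genes, and 0 short genes were limited to ovary, against 1 longer gene. Set against the genes at 1 FPKM in every testis, the limited ones were 22.2% of 198 short genes and 12.54% of 16555 longer genes. Of the 44, 15 (34.1%) were listed at 0 in every ovary, while 4.48% of the longer genes limited to testis were. The testis means of the 44 ran from 1.17 to 275 FPKM with a median of 2.18 FPKM, and 6 reached 10 FPKM. For longer genes limited to testis the median was 2.87 FPKM, so a low level was not particular to short genes.

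Besides the 2 genes on linkage group 3, 4 limited genes stood at 10 FPKM or more in testes. A 1365 bp gene on linkage group 11 (7515306 to 7516670) stood at 14.1, 74.4 and 31.0 FPKM in testes and 0.0526, 0 and 0 FPKM in ovaries. A 582 bp gene on linkage group 12 (2802696 to 2803277) showed 11.8, 32.4 and 10.9 FPKM in testes and 0, 0 and 0.0951 FPKM in ovaries. In both, testis 2 was the highest, as it was in the genes on linkage group 18 that follow. In the gene at 9587346 on linkage group 3 testis 2 was the lowest, as in the ovary-high genes on linkage groups 15, 5 and 7. In the gene at 1148292 on linkage group 3, testes 1 and 2 were nearly equal (76.1 and 75.7 FPKM) and testis 3 was the highest. A 1093 bp gene on linkage group 18 (12539344 to 12540436) stood at 10.04, 23.1 and 15.9 FPKM in testes and 0, 0.0633 and 0 FPKM in ovaries. A 1461 bp gene on the same linkage group (11876081 to 11877541) showed 5.34, 17.6 and 9.44 FPKM in testes and was listed at 0 in every ovary.

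On the ovary side, 7 short genes reached 1 FPKM in every ovary and in no testis, and all 7 were higher in ovary in the limma fit, which they could enter only through the ovaries. The highest, of 619 bp on linkage group 1 (39591134 to 39591752), stood at 0.285, 0.103 and 0.176 FPKM in testes and 104, 81.2 and 79.5 FPKM in ovaries. A 1222 bp gene on linkage group 5 (706174 to 707395) stood at 0.217, 0.223 and 0.247 FPKM in testes and 36.0, 19.0 and 22.2 FPKM in ovaries. Each of these stayed above 0.1 FPKM in every testis, so neither was limited to ovary by the rule. A 467 bp gene on linkage group 16 (1729260 to 1729726) was listed at 0 in testis 2 but had 0.174 and 0.182 FPKM in testes 1 and 3, against 11.1, 7.86 and 7.68 FPKM in ovaries. The remaining 4 had ovary means of 2.82 to 12.2 FPKM. These 3 loci were chosen for naming after their values were seen.

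Across the patterns of detection, 100 short genes (13.4%) were at 1 FPKM in every testis and no ovary, 7 (0.936%) in every ovary and no testis, 85 (11.4%) in all 6 libraries, and 469 (62.7%) in none. For longer genes the same shares were 29.2%, 0.543%, 41.0% and 12.4%. The remaining 87 short genes were mixed within a gonad.

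Among short genes, detection was highest in the class above 1000 bp, and it was higher still in longer classes. With 1 gene per distinct span, genes of at most 500 bp were at 1 FPKM in 28.0% ± 0.656 of cases in testes and 9.85% ± 1.31 in ovaries (SD, n = 3 per gonad). Above 500 and up to 1000 bp the shares were 27.4% ± 2.55 in testes and 13.8% ± 1.09 in ovaries, and above 1000 bp they were 42.8% ± 2.995 in testes and 19.8% ± 0.998 in ovaries. Testis libraries lay above ovary libraries in each class. Just beyond the limit, genes up to 3000 bp that lie within no other gene were detected in 64.3% ± 2.27 of cases in testes and 40.1% ± 1.85 in ovaries. The share of tested genes that were higher in ovary was 27.3% up to 500 bp, 25.7% up to 1000 bp and 23.3% up to 1500 bp in these classes, and it was 25.5% in the next class up to 3000 bp, 18.3% up to 10000 bp and 7.75% above 10000 bp. The ovary-higher share is therefore not particular to genes of 1500 bp or less.

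**Figure D5:**
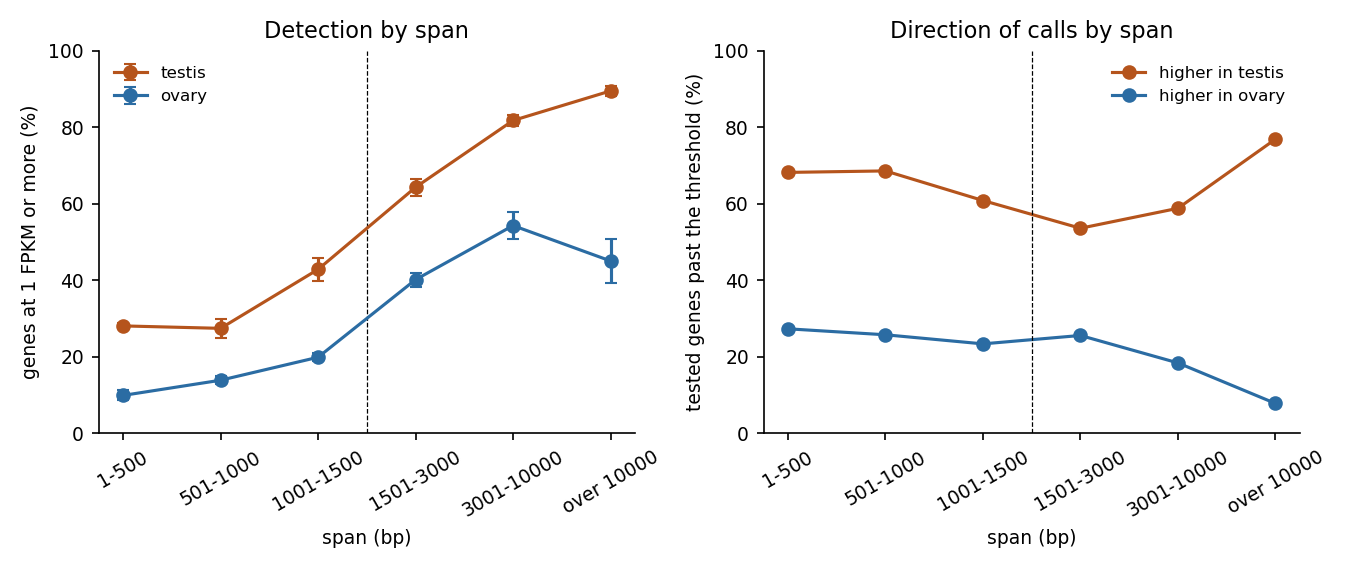
Detection at 1 FPKM (left, mean and SD of 3 libraries) and share of tested genes past the threshold in each direction (right) by span class, with 1 gene per distinct span and genes within a longer gene left out; the dashed line marks 1500 bp. Detection rises with span in testes above 1000 bp, and the share higher in ovary is 23.3% to 27.3% in the 4 classes up to 3000 bp and 7.75% above 10000 bp.

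The tested genes nearest the 1500 bp limit are given for description. Just inside, the 1496 bp gene on linkage group 1 (12695825 to 12697320) showed 36.0, 21.3 and 37.1 FPKM in testes and 4.44, 10.6 and 9.85 FPKM in ovaries, and the 1494 bp gene on linkage group 23 (1239686 to 1241179) stood at 56.8, 43.6 and 52.9 FPKM in testes and 130, 94.1 and 110.1 FPKM in ovaries. Just outside, the 1505 bp gene on linkage group 10 (10648230 to 10649734) showed 0.961, 0.930 and 0.656 FPKM in testes and 2.94, 2.06 and 2.04 FPKM in ovaries, and the 1515 bp gene on linkage group 13 (19453389 to 19454903) stood at 8.68, 3.75 and 6.65 FPKM in testes and 0.0649, 0.0881 and 0.0566 FPKM in ovaries. Each side held 1 gene that was higher in testis and 1 that was higher in ovary. The 1505 bp gene was low in both gonads and under 1 FPKM in every testis, so it entered the test only through the ovaries. The 1515 bp gene was under 1 FPKM in every ovary and entered only through the testes.

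At the other end, the 3 shortest tested genes went different ways. The 165 bp gene on linkage group 20 (88397 to 88561) showed 67.7, 17.4 and 22.2 FPKM in testes and 0.192, 0.470 and 0.126 FPKM in ovaries (log2 fold 4.62 ± 0.46, SE; limma adjusted p = 3e-05). The 180 bp gene on linkage group 10 (28599473 to 28599652) stood at 1.99, 1.81 and 1.70 FPKM in testes and 0, 0 and 0.0891 FPKM in ovaries. This gene and the 165 bp gene were under 1 FPKM in every ovary, so they entered the test only through the testes. The 198 bp gene on linkage group 22 (10770967 to 10771164) leaned to ovary, with 6.57, 8.52 and 7.08 FPKM in testes and 8.58, 16.7 and 13.8 FPKM in ovaries. Its log2 fold of -0.70 ± 0.27 (SE; limma adjusted p = 0.041) did not pass in TPM (-0.19) or without testis 1 (-0.63), testis 2 (-0.80), testis 3 (-0.68), ovary 2 (-0.51) or ovary 3 (-0.64).

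Some abundant short genes differed widely among testes. Among the 77 short genes with a testis mean of at least 10 FPKM, the median SD among testes was 0.273 on the log2(FPKM + 1) scale, and 7 (9.09%) had an SD of 1 or more. For longer genes at that level the median was 0.181, with 0.838% at an SD of 1 or more. In ovaries the order was the other way, with a median of 0.232 and 1 of 63 short genes (1.59%) at an SD of 1 or more, against 0.344 and 4.46% for longer genes. Testis 1 was the highest of the testes in 5 of the 7 short genes and testis 2 the lowest in 5. The latter include the linkage group 24 gene at 13344959, where testes 2 and 3 were nearly equal (200.1 and 200.4 FPKM). Besides the loci given above, a 903 bp gene on linkage group 4 (4885383 to 4886285) was among the 4 most variable, with 23.0, 2.94 and 16.4 FPKM in testes and 0.0471, 0.245 and 0.181 FPKM in ovaries. The fold of that gene was 3.35 ± 0.60 on the log2 scale (SE; limma adjusted p = 0.00096), and 4.14 without testis 2. That gene was under 1 FPKM in every ovary, so it entered the test only through the testes.

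Among ovaries, ovary 1 was the lowest library in each of the 4 most variable short genes. A 970 bp gene on linkage group 2 (37366988 to 37367957) showed 34.4, 28.7 and 34.3 FPKM in testes and 6.33, 32.0 and 20.4 FPKM in ovaries, and did not pass (log2 fold 0.95 ± 0.50, SE; limma adjusted p = 0.11), although it passed without ovary 2 (1.41) and in TPM (1.53). A 1327 bp gene on linkage group 6 (17030715 to 17032041) stood at 12.7, 11.6 and 13.2 FPKM in testes and 40.0, 95.5 and 133 FPKM in ovaries. A 1391 bp gene on linkage group 16 (5913208 to 5914598) showed 99.8, 145 and 127 FPKM in testes and 127, 386 and 344 FPKM in ovaries. Its log2 fold of -1.06 ± 0.41 (SE; limma adjusted p = 0.040) was lost in TPM (-0.49), after quantile normalization (-0.36) and without any 1 library except ovary 1.

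Short genes that followed each other on a linkage group were few once shared spans were set aside. There were 58 runs of 2 or more short genes with no other gene between them, holding 193 short genes, but 10 of these runs, with 89 genes, were a single span listed several times. The longest was 64 genes on 1 span of 1245 bp on linkage group 6 (26136092 to 26137336), of which 61 were listed at 0 in all 6 libraries and none was tested. The highest value in that run was 0.240 FPKM in a testis and 0.0679 FPKM in an ovary. The next was 8 genes on 1 span of 1240 bp on linkage group 10 (27360148 to 27361387), of which 6 were listed at 0 and 1 was tested, with 4.57, 5.77 and 4.63 FPKM in testes and 0.0737, 0.0386 and 0.0924 FPKM in ovaries. How reads on such a span were divided among its identifiers is not given in the sources used here, so values on shared spans are uncertain.

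The remaining 48 runs held 104 short genes on distinct spans. With 1 gene per distinct span, 56 of 660 short genes (8.48%) had a short gene as the next gene, where short genes were 3.05% of the genes on linkage groups. The longest such run was 5 separate genes of 601 to 1169 bp on linkage group 19 (14693273 to 14705956). None of them passed the filter, and their highest values were 1.70 FPKM in a testis and 0.0603 FPKM in an ovary. In 43 of the 56 pairs neither gene was tested.

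Both genes were tested in 6 neighbouring pairs. On linkage group 1, genes at 28078436 to 28078735 and 28079144 to 28079542, 408 bp apart, were both higher in ovary. The first had 80.8, 49.8 and 68.1 FPKM in testes and 985, 1172 and 1227 FPKM in ovaries, and the second had 299.9, 187 and 248 FPKM in testes and 796.5, 840.4 and 836 FPKM in ovaries. Their log2 folds were -4.09 and -1.77 (limma adjusted p = 1.4e-06 and 4.6e-05). On linkage group 24, genes at 8078201 to 8079076 and 8080030 to 8080937, 953 bp apart, went opposite ways. The first had 35.9, 33.0 and 25.9 FPKM in testes and 50.4, 60.0 and 52.2 FPKM in ovaries, and the second had 30.3, 39.7 and 122 FPKM in testes and 2.86, 1.24 and 2.55 FPKM in ovaries. Their log2 folds were -0.77 and 4.11 (limma adjusted p = 0.0083 and 9.9e-05).

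On linkage group 8, the gene at 11150236 that did not pass was followed 1009 bp on by one at 11152431 to 11153693, which had 94.6, 88.0 and 91.3 FPKM in testes and 4.70, 15.3 and 12.1 FPKM in ovaries (log2 fold 3.11 ± 0.38, SE; limma adjusted p = 9.2e-05). In 2 further pairs, on linkage groups 1 and 17, both genes were higher in testis, and in the last, on linkage group 16, the genes were opposite but 154492 bp apart. Of the 5 pairs with both genes past the threshold, 3 had a shared direction, beside 75.2% of 9292 such neighbouring pairs over all genes. In the linkage group 1 pair higher in testis, both genes were under 1 FPKM in every ovary. The same held for 1 gene of the pair on linkage group 17 and 1 of that on linkage group 16. Such genes entered the test only through the testes and could be called only toward testis, so the directions are set in part by the filter. Short genes higher in testis lay on all 24 linkage groups and those higher in ovary on 21.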

How the data were processed

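Trizol was used to extract total RNA for Illumina libraries, per the labels' protocols. The submitters' processing notes name HISAT2 2.0.4 and StringTie 1.3.3b. For genome build, annotation and filters, a statement is not given in the sources used here. FPKM was deposited by the authors (fragments per kilobase of gene model per 1000000 fragments) as 1 table with a column per library, and 0 columns belonged to no sample. FPKM is relative, so abundant transcripts lower all other values, and with depth unknown no count model or counting interval was used.

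limma 3.58.1 (lmFit, eBayes with trend, two-sided, R 4.3.3) was fitted to log2(FPKM + 1) of all 17206 genes that reached 1 FPKM in 3 or more of the 6 libraries. Tissue was the sole term, p-values were adjusted by Benjamini and Hochberg over all tested genes, and the step was tested on simulated data. Genes called higher passed an adjusted p of 0.05. Values per library were compared by the exact two-sided permutation test with Python 3.11.15 and pandas 2.3.3. P-values measure the spread between these fish. The replicate numbers, which tie no fish together, gave correlations of same-numbered deviations of 0.009, -0.001 and -0.059 and were not used as pairs.

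Loci were named by rule: the 6 highest means in each gonad, the 6 largest folds in each direction at 10 FPKM or more without overlap, the 6 highest limited genes, the 4 most abundant that did not pass, the 3 longest runs, those nearest 1500 bp, the 3 shortest and the 4 most variable in each gonad. Neighbouring pairs were named after their values were seen. Planned marker genes could not be looked up without gene names. The short genes, limits and tests were chosen with earlier results of these data known. Alternatives were other pseudocounts, filters, scalings, variance models, thresholds, span limits, a replicate block and each library left out. Those on shared spans, on the ratio of shares and on the share of summed FPKM were chosen after seeing the data.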

Additional observations from a re-analysis of the deposited data

Results flagged for a closer look

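The mean FPKM of short genes over that of longer genes, on the log2 scale, was -0.999 in testes and 1.61 in ovaries (means of 3 libraries each). It was flagged because every testis lay below 0 and every ovary above 0. The exact two-sided permutation test of the difference between the gonads gave p = 0.1, the smallest value that 3 against 3 libraries allow, so it could not pass a threshold of 0.05. The 6 short genes with the highest ovary mean held 3.40% of the short-gene sum in testes and 83.8% in ovaries. With each library's own 6 highest short genes left out, short genes held 0.879% of the summed FPKM in testes and 1.55% in ovaries, without overlap. With the 6 of highest ovary mean left out of every library, they held 1.69% in testes and 1.55% in ovaries, with overlap. The median short gene was below the median longer gene in every library, by a log2(FPKM + 1) difference of -2.48 in testes and -0.919 in ovaries.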

How the results depend on the processing

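The titles number fish 1 to 3 in both gonads. With the replicate block, 135 short genes were called toward testis and 52 toward ovary, against 136 and 52 without it, and no call of a named locus changed. The median log2 fold of tested short genes (1.31) was 2.80 with a pseudocount of 0.1, 0.29 without a filter, 0.022 under a filter at a mean of 5 FPKM, 1.99 in TPM and 0.13 after quantile normalization. Over all tested genes (1.43) the medians in the same settings and order were 2.195, 1.046, 1.024, 2.09 and 0.13. The genes higher in testis numbered 400 without a filter, 48 under the 5 FPKM filter (47 toward ovary) and 81 after quantile normalization (72 toward ovary), and those with a log2 fold of 1 (128) numbered 43 and 50 in the last 2 settings. Testis-higher genes made up 86.6% of the short-gene calls without a filter, 50.5% under the 5 FPKM filter and 52.9% after quantile normalization. For calls over all genes the same shares were 86.5%, 72.85% and 53.7%. The 5 FPKM filter admitted 112 short genes in place of 212, and 10058 genes in all in place of 17206. The cause of these shifts was not tested. Other rules for membership change the counts by their construction. At a span limit of 1000 bp there were 63 genes higher in testis (57 with a log2 fold of 1), 24 higher in ovary (21) and 20 limited to testis. At 2000 bp there were 247 (228), 107 (87) and 83. With short genes inside longer genes kept there were 231 (214), 89 (78) and 83, with 1 limited to ovary. The 44 genes limited to testis were 70 in TPM and 32 after median-ratio scaling. They were 84 under a limit of 0.5 FPKM in the other gonad, 15 at a listed 0 there and 8 at 5 FPKM in testis, and 4 were limited to ovary under the 0.5 FPKM limit. The short minus longer share at 1 FPKM, testis minus ovary (-18.9 points), reversed to 15.5 points at 0.1 FPKM and to 0.31 as a log2 ratio of shares. It kept its sign but shrank to -7.12 points against only those longer genes that span at most 5000 bp. With longer genes inside another gene left out it was -19.5 points. The cause was not tested. The share of summed FPKM in short genes, testis minus ovary (-7.15 points), was -4.30 points at a span limit of 1000 bp and -12.05 points at 2000 bp. With short genes inside longer genes kept it was -14.94 points. With each library's own 6 highest left out it was -0.670 points. This share differed by 0.139 points, with overlap, when the 6 of highest ovary mean were left out of every library. With each library left out in turn, there were 130 to 137 genes called toward testis, 48 to 56 toward ovary and 46 to 57 limited to testis, and the short minus longer share stayed between -20.3 and -16.8 points. The count limited to testis could only stay at 44 or rise there, because each library left out removes a condition of the rule. Over 35 named loci, 385 alternative values kept their direction and side of the threshold in 345 cases, lost the call in 22, gained it in 7 and reversed in 11. All 11 were at loci that did not pass as deposited, and 2 of them passed in the new direction, both after quantile normalization. Many of the 35 loci were named for a call with a large fold and no overlap, or as limited to testis. These tallies are therefore set in part by the choice of loci from the same values. The gene at 2883070 on linkage group 3 (-0.09) turned to 0.49 in TPM and 0.80 after quantile normalization, and ran from -0.22 to 0.059 with libraries left out. The gene at 11150236 on linkage group 8 (0.04) turned to -0.44 after median-ratio scaling, and ran from -0.25 to 0.19 with libraries left out. The gene at 208439 on linkage group 21 (-0.43) turned to 0.14 in TPM and 0.29 after quantile normalization, and that at 16638128 on linkage group 22 (-0.22) to 0.35 and 0.77. Depth is unknown, so a 0 in 1 gonad cannot be told from a level under what its depth could show.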
